A study of Homo sapiens with 4 samples.

Results

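The 10 genes described here encode WDR5 and the core of the MLL/SET1 histone methyltransferase complexes. They are WDR5, RBBP5, ASH2L and DPY30, which encode the 4 subunits that all these complexes share, and KMT2A, KMT2B, KMT2C, KMT2D, SETD1A and SETD1B, which encode the 6 alternative catalytic subunits. They were chosen by name, and all 10 were among the 27658 gene identifiers measured. RNA was sequenced from DU145 and PC-3, established human prostate cancer lines, from a brain and a bone metastasis, whose growth does not need androgen. DU145 was kept in DMEM and PC-3 in RPMI1640. Each line was treated for 48 h with the WDR5 antagonist OICR-9429, at 120 µM for DU145 and at 150 µM for PC-3, or with its solvent DMSO. The 4 groups had 1 library each, so a difference within a line, or between the lines with DMSO, has no replicate check. The lines also differ in medium and dose, which cannot be told apart from the line.

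The MLL/SET1 complexes add methyl groups to a lysine of histone H3 (H3K4), a mark found at active promoters and enhancers. WDR5, RBBP5, ASH2L and DPY30 form a scaffold that holds the catalytic SET domain in its active form. WDR5 binds a short arginine-containing stretch of the catalytic subunit in a central pocket, which is the site that OICR-9429 occupies. OICR-9429 therefore acts on a protein interaction, and the values here are of RNA and do not measure that interaction, the proteins or the mark. Among the catalytic subunits, KMT2A and KMT2B act with the cofactor menin at selected promoters, KMT2C and KMT2D chiefly place monomethyl marks at enhancers, and SETD1A and SETD1B account for much of the trimethylation at promoters. WDR5 also serves in other assemblies, among them the NSL acetyltransferase complex, and binds MYC.

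Libraries held 27591000 to 29312000 fragments, recovered from the deposited values, and the members were covered by 786 to 8511 fragments each. CTNNA1, the alpha-catenin gene that is deleted in PC-3, stood at 499.5 and then 656 CPM in DU145, with 2.73 and then 3.45 CPM in PC-3, as the line labels require. Of the epithelial markers, KRT8 and KRT18 stood at 78.8 to 562 CPM in the 4 libraries, while CDH1 stood at 58.4 and then 23.4 CPM in DU145, with 9.38 and then 6.55 CPM in PC-3. KLK3, a marker of luminal prostate cells, was not listed. Of the leukocyte, endothelial and fibroblast markers, PECAM1 (1.45 to 27.2 CPM) and COL1A1 (3.55 to 68.1 CPM) exceeded 1 CPM, and the others listed stood at 0.58 CPM or lower. Levels are given in CPM, the reads of a gene scaled to a common library total. Each ratio of CPM has an exact 95% interval in brackets, which reflects counting error and so compares libraries, not conditions. A gene counted as past 2-fold when log2(CPM + 1) differed by 1 or more, with 1 CPM or more on the higher side.

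The promoters of the members were set beside those of proliferation markers, since most of the latter fell across the lines. The list of markers was chosen with earlier results of these data known. Of the members, 7 had a RefSeq promoter (GRCh38.p14), and the 250 bases before the start were searched on both strands. The start nearest to that of GENCODE's principal transcript was taken, for WDR5 from 4. For KMT2D it lay 5470 bases from the GENCODE start and for SETD1A 460. The windows of RBBP5, KMT2A, KMT2C and SETD1A held annotated exons of the same gene, as did all marker windows but that of MKI67. A window without a match may thus differ from the promoter in use. Shown are the promoters of WDR5 and of KMT2B, members with opposite directions of change in PC-3, and of MKI67, the Ki-67 gene. Capitals mark a CCAAT box (CCAAT), a cell cycle homology region or CHR (TTTGAA or TTTAAA) and an E2F core (GCGGGAA), elements known from cell cycle genes. In the MKI67 sequence a CHR match and a CCAAT match share 1 base.
WDR5, chr9:134135832-134136081, plus strand: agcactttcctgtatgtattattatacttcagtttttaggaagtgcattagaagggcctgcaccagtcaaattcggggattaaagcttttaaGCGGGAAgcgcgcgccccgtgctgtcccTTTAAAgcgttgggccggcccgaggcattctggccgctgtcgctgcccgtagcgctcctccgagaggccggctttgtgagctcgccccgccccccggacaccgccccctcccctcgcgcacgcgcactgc
KMT2B, chr19:35717753-35718002, plus strand: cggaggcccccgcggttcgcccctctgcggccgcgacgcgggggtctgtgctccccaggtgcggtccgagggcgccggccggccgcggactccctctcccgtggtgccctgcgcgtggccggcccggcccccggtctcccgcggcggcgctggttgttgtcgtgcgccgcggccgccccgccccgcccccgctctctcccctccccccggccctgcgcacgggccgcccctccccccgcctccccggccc
MKI67, chr10:128126424-128126673, minus strand: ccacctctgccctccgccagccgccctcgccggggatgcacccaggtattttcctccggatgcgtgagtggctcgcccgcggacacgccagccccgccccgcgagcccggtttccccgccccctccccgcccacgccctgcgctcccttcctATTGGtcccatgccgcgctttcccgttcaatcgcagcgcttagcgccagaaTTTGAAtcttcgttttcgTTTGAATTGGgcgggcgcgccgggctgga
None of the 7 member promoters held a CCAAT box, against 6 of the 7 promoters of proliferation markers and 32.0% of 35116 RefSeq promoters. A CHR match stood in 2 of the 7 members, WDR5 and RBBP5, in 4 of the 7 proliferation markers and in 21.9% of all promoters. The E2F core, searched only as GCGGGAA, stood in WDR5 alone among the members, in 0 of the 7 markers and in 5.52% of all promoters. Other forms of E2F site were not searched, so a promoter without this match may still hold such a site. These are matches of letters and not shown to be bound sites.

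**Figure D1:**
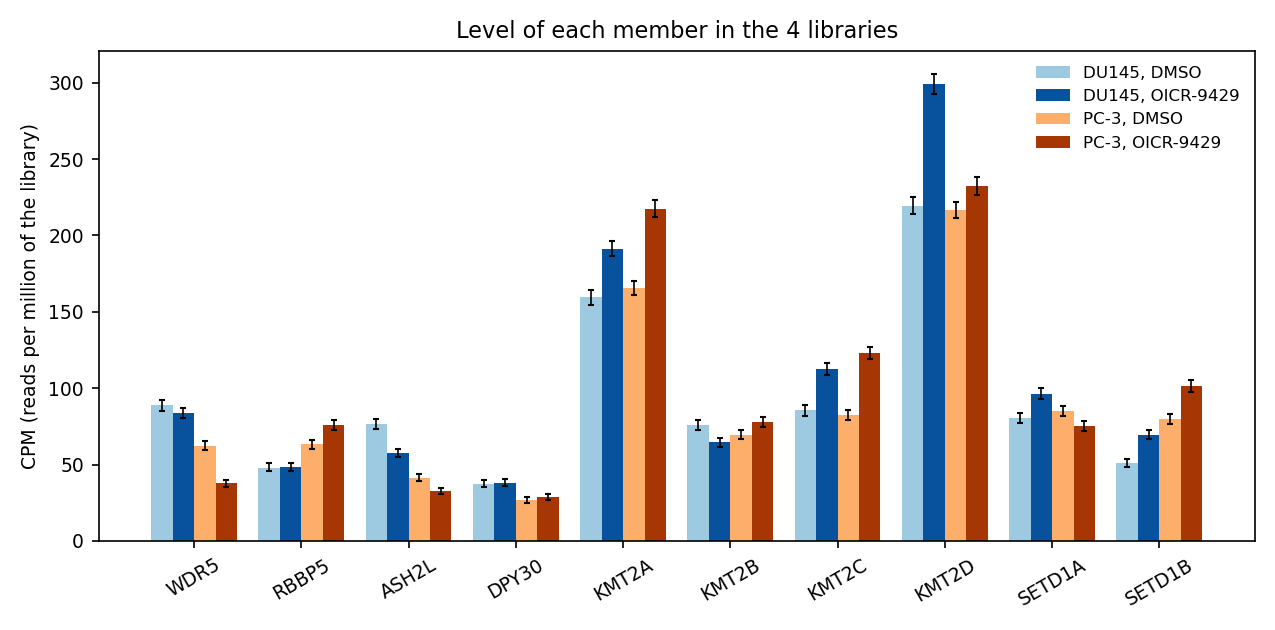
Level of the 10 members in CPM (bars) in the 4 libraries, with 95% counting intervals (lines). WDR5 is highest in the DMSO library of DU145 at 88.8 CPM and lowest in the treated PC-3 library at 37.6 CPM.

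WDR5 stood lower in PC-3 than in DU145, and lowest in PC-3 with OICR-9429. WDR5 (ENSG00000196363) had 88.8 CPM in DU145 with DMSO, 83.5 in DU145 with OICR-9429, 62.2 in PC-3 with DMSO and 37.6 in PC-3 with OICR-9429. The counting intervals of the DU145 libraries overlapped (85.4 to 92.4 and 80.2 to 86.9 CPM), while the PC-3 libraries were apart from them and from each other. The ratio of OICR-9429 over DMSO was 0.940 in DU145 (0.888 to 0.995) and 0.604 in PC-3 (0.559 to 0.652). Between the treated libraries WDR5 was 2.22-fold higher in DU145 (2.06 to 2.39), and it was the 1 member past 2-fold there, where 34.5% of all genes were. Under TMM and median-of-ratios scaling its log2 difference was 0.96 and 0.95, and no member was past 2-fold. Among genes within 0.5 of its mean log2(CPM + 1), 13.3% had a lower change in PC-3 and 37.7% in DU145. In DU145 its log2 change was −0.09 on the deposited scale and turned to 0.10 with TMM scaling and 0.15 with median-of-ratios scaling.

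RBBP5 (ENSG00000117222), a WD-repeat subunit that contacts the catalytic SET domain together with ASH2L, had the opposite order. It stood at 48.0 CPM with DMSO and 48.2 with OICR-9429 in DU145, and at 63.1 and 75.9 CPM, likewise, in PC-3. The ratio was 1.00 in DU145 (0.929 to 1.08), with overlapping libraries, and 1.20 in PC-3 (1.13 to 1.28). ASH2L (ENSG00000129691), the SPRY-domain subunit, stood at 76.7 and then 57.6 CPM in DU145, with 41.4 and then 32.7 CPM in PC-3. It was lower with OICR-9429 in both lines, with ratios of 0.751 (0.704 to 0.801) and 0.790 (0.724 to 0.862), and its direction was the same under the other scalings. DPY30 (ENSG00000162961), the small subunit that docks on ASH2L as a dimer, stood at 37.5 and then 38.1 CPM in DU145, with 26.8 and then 28.4 CPM in PC-3. Its intervals included 1 in both lines, at 1.02 (0.933 to 1.11) and 1.06 (0.959 to 1.17).

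The catalytic subunits mostly stood higher with OICR-9429. KMT2A (ENSG00000118058), the MLL1 enzyme rearranged in leukaemia, stood at 159 and then 191 CPM in DU145, with 166 and then 217 CPM in PC-3. Its ratios were 1.20 (1.15 to 1.25) and 1.31 (1.26 to 1.36). KMT2C (ENSG00000055609), an enhancer enzyme, stood at 85.5 and then 113 CPM in DU145, with 82.6 and then 123 CPM in PC-3, the largest ratio of any member in PC-3 at 1.49 (1.41 to 1.57). SETD1B (ENSG00000139718), a promoter enzyme, stood at 50.8 and then 69.6 CPM in DU145, with 79.7 and then 102 CPM in PC-3, the largest ratio in DU145 at 1.37 (1.28 to 1.47). These 3 genes were higher with OICR-9429 in both lines, beyond counting error, as was KMT2D. Over all genes the interval lay above 1 for 23.4% in DU145 and 38.3% in PC-3. The share above 1 in both lines was not counted.

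The other catalytic subunits differed between the lines in size or direction. KMT2D (ENSG00000167548), the paralogue of KMT2C, stood at 220 and then 299 CPM in DU145, with 217 and then 232 CPM in PC-3, with ratios of 1.36 (1.32 to 1.41) and 1.07 (1.04 to 1.11). SETD1A (ENSG00000099381), the paralogue of SETD1B, stood at 80.4 and then 96.3 CPM in DU145, with 85.1 and then 75.0 CPM in PC-3, higher in the first line at 1.20 (1.13 to 1.27) and lower in the second at 0.882 (0.832 to 0.935). KMT2B (ENSG00000272333), the paralogue of KMT2A, stood at 76.1 and then 64.6 CPM in DU145, with 69.6 and then 77.8 CPM in PC-3, a ratio of 0.849 (0.797 to 0.904) and 1.12 (1.05 to 1.19). Its DU145 direction turned under median-of-ratios scaling, to a log2 change of 0.008.

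**Figure D2:**
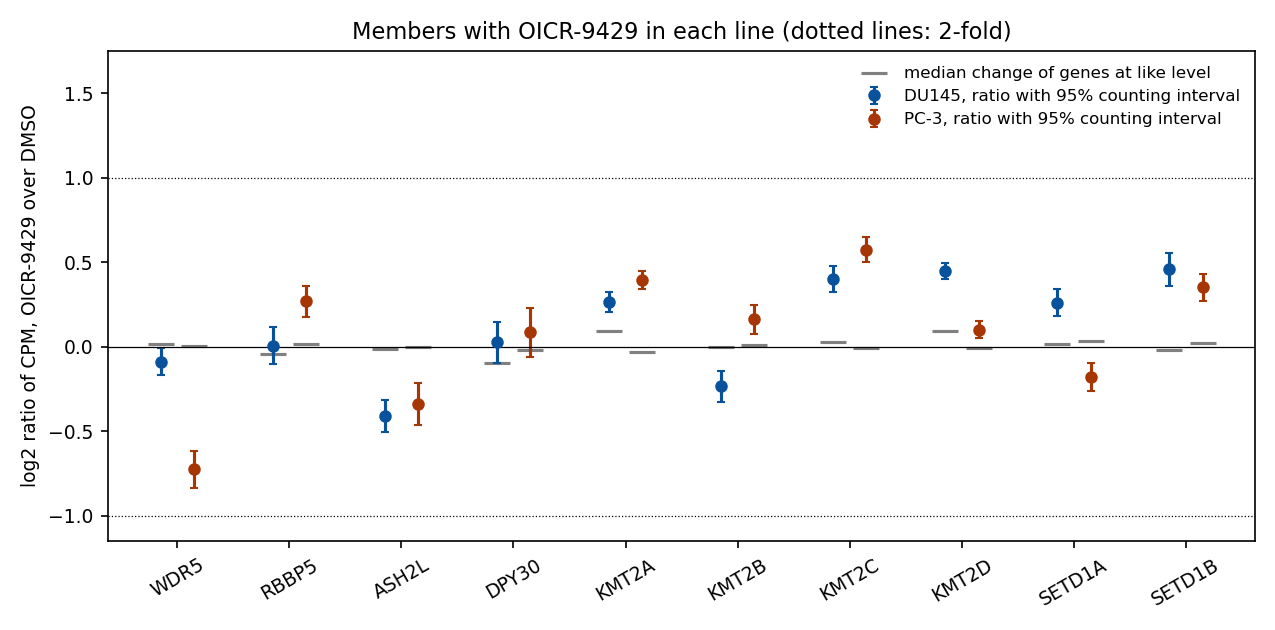
Log2 ratio of CPM, OICR-9429 over DMSO, for each member in DU145 (blue) and PC-3 (brown), with 95% counting intervals and the median change of genes at like level (grey bars). All 20 points lie within 2-fold, with WDR5 in PC-3 farthest from 0.

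None of the 10 members was past 2-fold with OICR-9429 in DU145, where 9.01% of 16120 genes were, or in PC-3, where 15.8% of 14623 genes were. In DU145 the counting interval lay above 1 for 5 members and below 1 for 3, against 23.4% and 49.5% of all genes, and it excluded 1 for 73.0% of them. In PC-3 it lay above 1 for 6 members and below 1 for 3, against 38.3% and 39.5% of all genes, and it excluded 1 for 77.8%. At this depth an interval that excludes 1 is therefore common. Median log2 changes were 0.14 for the members and −0.18 for all genes in DU145, and 0.13 and −0.01 in PC-3. The 6 catalytic subunits had medians of 0.33 and 0.25 and the 4 shared subunits medians of −0.04 and −0.12 (DU145, then PC-3). TMM and median-of-ratios scaling raise every DU145 log2 ratio by 0.19 and 0.24 and every PC-3 log2 ratio by 0.025 and 0.02, so that 8 and 9 members were higher in DU145 in place of 7. Under either, the DU145 interval lay above 1 for 8 members, WDR5, RBBP5 and DPY30 among them, below 1 for ASH2L, and included 1 for KMT2B.

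Transcript length differed between these sets, and long genes stood slightly higher in the treated libraries. Genes of 25 to 400 CPM with merged exons of 2 to 4 kb had a median log2 change of −0.09 in DU145 and −0.10 in PC-3, while those over 8 kb had 0.06 and 0.09. Merged exons are 2.75 to 5.91 kb long for the shared subunits and 6.83 to 31.3 kb for the catalytic subunits. KMT2C was 0.37 above genes of like level in DU145 and 0.25 above the 111 genes of like level and length, and in PC-3 the values were 0.58 and 0.36. For KMT2D in PC-3, 0.11 above genes of like level became −0.01 against 42 genes of like level and length. In DU145 the values of KMT2D were 0.35 and 0.23. SETD1B changed little, with 0.47 and 0.45 in DU145 and 0.32 and 0.31 in PC-3. For WDR5 in PC-3 the values were −0.71 and −0.67. The part of length in these values was not tested.

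With line as the unit of replication, none of the 10 members passed the test of OICR-9429 across both lines (limma with trend, Benjamini-Hochberg adjusted p under 0.05), where 1.28% of 14976 genes did. No member had an unadjusted p under 0.05 in this test with limma, edgeR or DESeq2. The estimate for KMT2C was 0.48 ± 0.30 on the log2 scale (SE; limma's adjusted p = 0.74), higher in both lines. That for SETD1B was 0.40 ± 0.30 (adjusted p = 0.82) and that for ASH2L −0.37 ± 0.31 (adjusted p = 0.86). WDR5 had −0.40 ± 0.31 (adjusted p = 0.83), which averages a small difference in DU145 and a larger one in PC-3. The fit has 1 residual degree of freedom, so its errors rest mostly on the trend over all genes, and a p that misses the threshold does not show that a gene was alike in both treatments.

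Ratios between members within a library do not depend on how libraries are scaled, and they set the balance of the complex subunits apart from that question. Per kilobase of the longest coding transcript, WDR5 was 2.58 times RBBP5 in DU145 with DMSO, 2.42 times with OICR-9429, 1.38 times in PC-3 with DMSO and 0.692 times with OICR-9429. The treated PC-3 library was the 1 library in which WDR5 stood below RBBP5. The ratio with OICR-9429 over that with DMSO was 0.937 in DU145 (0.853 to 1.03) and 0.502 in PC-3 (0.455 to 0.554). WDR5 over DPY30 gave 0.924 (0.835 to 1.02) and 0.570 (0.503 to 0.646), so in PC-3 WDR5 was lower relative to both. WDR5 over ASH2L was higher in DU145, at 1.25 (1.15 to 1.36), and lower in PC-3, at 0.764 (0.682 to 0.858). ASH2L over RBBP5 was lower in both lines, by factors of 0.749 (0.678 to 0.827) and 0.657 (0.591 to 0.731).

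The balance within pairs of catalytic paralogues also moved, for KMT2C over KMT2D beyond counting error in PC-3 alone. KMT2A over KMT2B went from 1.07 to 1.51 in DU145, a factor of 1.41 (1.31 to 1.52), and from 1.21 to 1.42 in PC-3, a factor of 1.17 (1.09 to 1.26). SETD1B over SETD1A went from 0.498 to 0.570 in DU145, a factor of 1.15 (1.05 to 1.25), and from 0.738 to 1.07 in PC-3, a factor of 1.44 (1.33 to 1.56). KMT2C over KMT2D stood at 0.448 and 0.433 in DU145, a factor that included 1, and went from 0.439 to 0.609 in PC-3, a factor of 1.39 (1.31 to 1.48). KMT2A over KMT2B and SETD1B over SETD1A were thus higher with OICR-9429 in both lines, each comparison resting on 1 library a group. The 4 shared subunits together held 2.18 and 1.70 times the summed CPM per kilobase of the 6 catalytic subunits in DU145 (DMSO, then OICR-9429) and 1.49 and 1.22 times in PC-3. With merged exons as the length the values were 1.37 and 1.05 in DU145 and 0.989 and 0.788 in PC-3, with the same order of libraries.

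**Figure D3:**
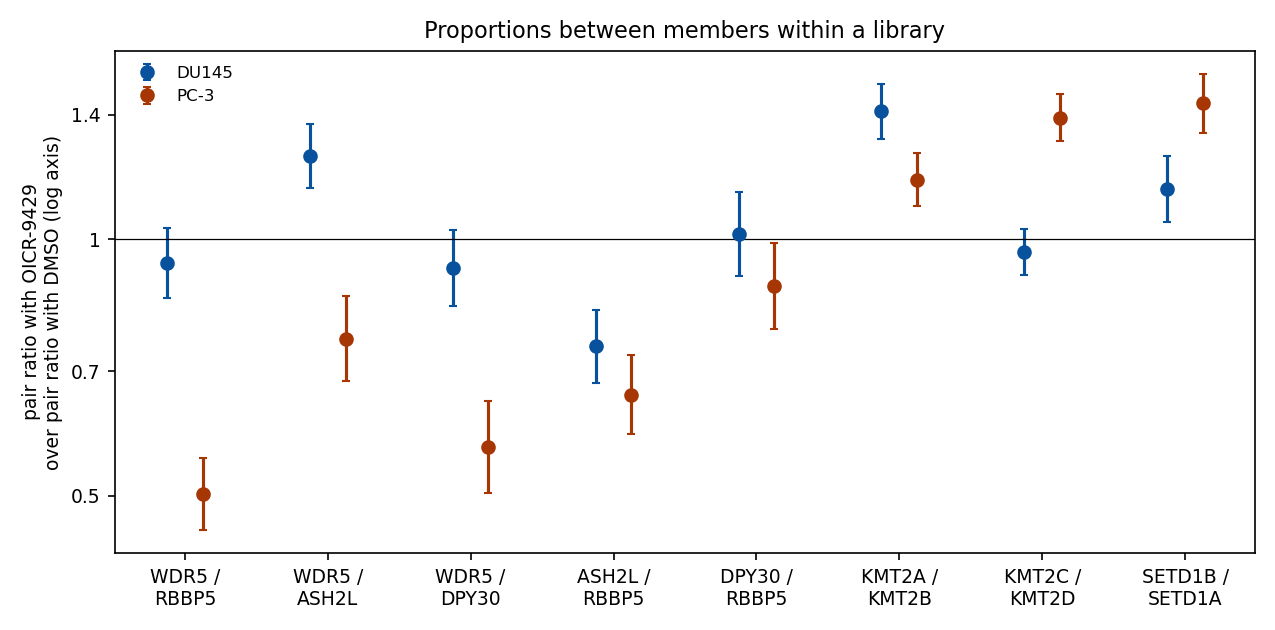
Ratio of each pair of members with OICR-9429 divided by the same ratio with DMSO, on a log axis, in DU145 (blue) and PC-3 (brown), with 95% counting intervals. WDR5 over RBBP5 in PC-3 lies lowest at 0.502, and KMT2A over KMT2B and SETD1B over SETD1A lie above 1 in both lines.

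Ordered by CPM per kilobase of the longest coding transcript in DU145 with DMSO, DPY30 came first at 53.0, followed by WDR5 at 28.2, ASH2L at 24.8 and SETD1A at 12.5. Next came KMT2D at 11.3 and RBBP5 at 10.9, whose counting intervals overlapped, and KMT2A at 9.59 and KMT2B at 8.98, which also overlapped. SETD1B at 6.20 and KMT2C at 5.07 were lowest. KMT2C was the lowest of the 10 in all 4 libraries on this scale. In the treated PC-3 library WDR5, at 11.9, ranked 6 in place of 2 and overlapped its neighbours KMT2D at 12.0 and SETD1A at 11.6. The order rests on the length used. With merged exons DPY30 (2.75 kb in place of 0.708 kb) had rank 2, 4, 5 and 6 in the libraries, and WDR5 had rank 1 in all but the treated PC-3 library, where it had rank 5. KMT2A in treated PC-3 went from rank 3 to 8 and ASH2L in treated DU145 from rank 3 to 6.

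With DMSO, ASH2L was 1.85-fold higher in DU145 (1.73 to 1.99), WDR5 1.43-fold (1.34 to 1.52) and DPY30 1.399-fold (1.27 to 1.54), and RBBP5 was lower at 0.761 (0.708 to 0.817). Of the catalytic subunits, SETD1B was lower in DU145 at 0.637 (0.596 to 0.681) and KMT2B was higher at 1.09 (1.03 to 1.16), while the intervals of KMT2A, KMT2C, KMT2D and SETD1A included 1. No member was past 2-fold, against 35.9% of 15878 genes. The interval lay above 1 for 4 members and below 1 for 2, against 55.3% and 32.5% of all genes, and it excluded 1 for 87.8% of them. Between the treated libraries it lay above 1 for 5 members and below 1 for 5, against 48.6% and 38.0% of all genes, and it excluded 1 for 86.6%.

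These differences between the lines depend on the scale. TMM and median-of-ratios scaling lower every DU145 value against PC-3 by 0.34 and 0.41 on the log2 scale. The log2 difference of WDR5 was 0.51 on the deposited scale, 0.17 with TMM and 0.11 with median-of-ratios scaling, and that of ASH2L was 0.88, 0.54 and 0.48. All 6 catalytic subunits were lower in DU145 under both of these scalings, and KMT2B so turned its direction, at −0.21 and −0.28. SETD1B reached −1.04, past 2-fold, with median-of-ratios scaling. Within a library, ASH2L over RBBP5 was 2.44-fold higher in DU145 than in PC-3 (2.20 to 2.69) and WDR5 over RBBP5 1.88-fold (1.71 to 2.06), whatever the scale.

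No member passed the test between the lines over all 4 libraries (limma, adjusted p under 0.05), where 31.7% of genes did. ASH2L came nearest, with 0.84 ± 0.31 on the log2 scale, DU145 minus PC-3 (SE; limma's adjusted p = 0.054, 0.051 to 0.27 over 9 alternatives), and was higher in DU145 under both treatments. WDR5 followed with 0.82 ± 0.31 (adjusted p = 0.060, 0.060 to 0.31 over the alternatives). Both had an unadjusted p under 0.05. SETD1B, at −0.59 ± 0.30 (adjusted p = 0.15), passed under TMM scaling alone (adjusted p = 0.0499).

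**Figure D4:**
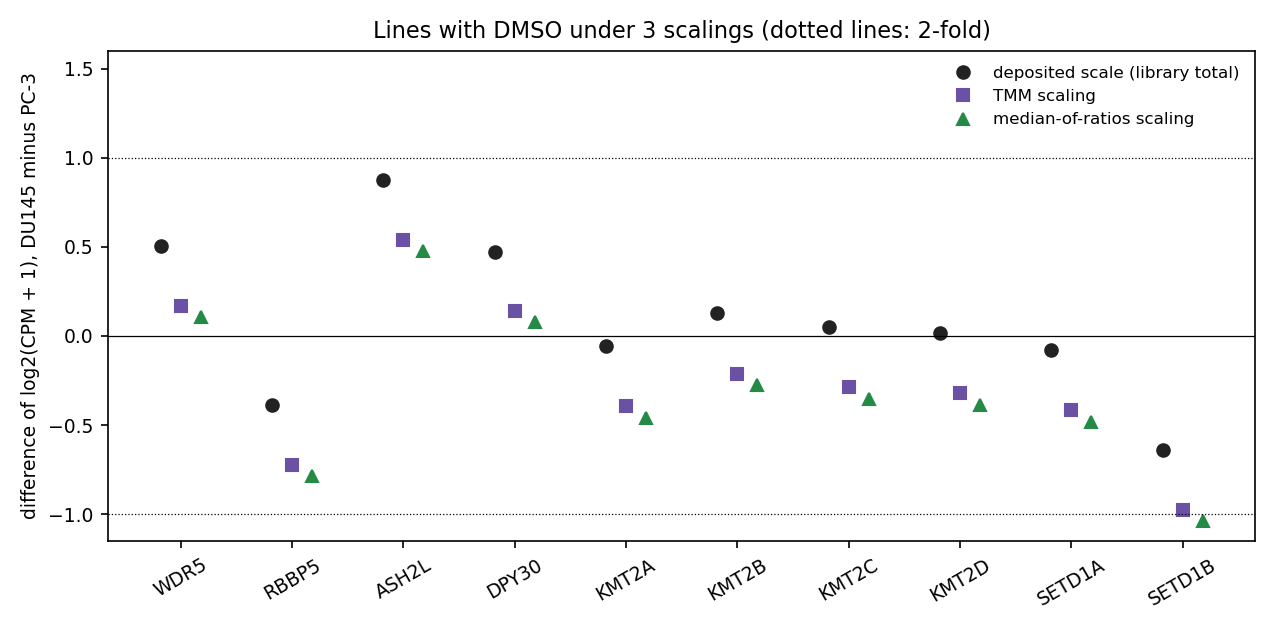
Difference of log2(CPM + 1), DU145 minus PC-3, between the DMSO libraries for each member on the deposited scale and under TMM and median-of-ratios scaling. WDR5, ASH2L and DPY30 lie above 0 and RBBP5, KMT2A, SETD1A and SETD1B below 0 under all 3 scalings.

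The size of the response was set side by side in the lines as the ratio in PC-3 over the ratio in DU145, which 4 libraries allow only as a description with counting intervals. It was 0.643 for WDR5 (0.585 to 0.707), 0.737 for SETD1A (0.679 to 0.798) and 0.786 for KMT2D (0.750 to 0.825), the members that stood lower in PC-3 relative to DU145. It was 1.32 for KMT2B (1.21 to 1.44), 1.20 for RBBP5 (1.09 to 1.32), 1.13 for KMT2C (1.05 to 1.22) and 1.09 for KMT2A (1.04 to 1.16). For ASH2L, DPY30 and SETD1B the interval included 1. These values depend on the scale. Under TMM scaling those of RBBP5, KMT2A and KMT2C were 1.07 (0.969 to 1.18), 0.976 (0.924 to 1.03) and 1.01 (0.935 to 1.08), with intervals that included 1. Under median-of-ratios scaling KMT2A was at 0.936 (0.887 to 0.990) and KMT2C at 0.967. SETD1B lay below 1 under both, at 0.828 and 0.795. WDR5, SETD1A and KMT2D stayed below 1 and KMT2B above 1 under both scalings. The share of all genes whose interval excludes 1 in this comparison was not counted.

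The 5 genes whose profile over the 4 libraries was nearest to that of WDR5, by Euclidean distance of centred log2(CPM + 1) among 10216 genes, were PSMB3, U2SURP, PSMB6, PGM2 and LCMT2. PSMB3 and PSMB6 encode proteasome core subunits, and PSMB3 stood at 87.2, 82.5, 59.2 and 37.0 CPM in the order of libraries above, at a distance of 0.042. PSMB6 stood at 93.1, 86.6, 63.7 and 41.3 CPM. The profile is over 4 libraries and is fixed largely by the line and by PC-3 with OICR-9429. Of the other members ASH2L was nearest to WDR5, at rank 368, and SETD1B farthest, at rank 7470.

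Other genes of the H3K4 system did not pass the test across lines either. Of 12 accessory subunits of the MLL/SET1 complexes, 8 other WDR5 partners, 5 H3K4 demethylases, 13 H3K4 methylation readers and 14 Polycomb core genes, 0 passed with limma. Over all genes 1.28% passed, so a count of 0 in lists this short says little about them. The accessory subunits had median log2 changes of −0.07 and −0.05 (DU145, then PC-3), with 0 past 2-fold in either line. Over all genes 9.01% were past 2-fold in DU145 and 15.8% in PC-3. Among them PAXIP1, a subunit of the KMT2C and KMT2D complexes, stood at 48.6 and then 45.4 CPM in DU145, with 28.4 and then 18.1 CPM in PC-3. NCOA6, a coactivator of the same complexes, stood at 103 then 119 CPM, with 140 then 199 CPM in PC-3. PSIP1, the chromatin tether of KMT2A and menin, stood at 156 then 127 CPM, with 94.2 then 73.5 CPM in PC-3, and HCFC2 at 20.3 then 12.8 CPM, with 17.1 then 15.5 CPM in PC-3. Both directions were thus present among the accessory subunits, and the members' medians of 0.14 and 0.13 stood above theirs.

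The other partners of WDR5 had medians of −0.11 and 0.22, with 0 of 8 past 2-fold, against 9.01% and 15.8% of all genes. KANSL2, an NSL subunit, stood at 52.2 and then 45.9 CPM in DU145, with 27.4 and then 21.4 CPM in PC-3, and KANSL1, its scaffold that binds WDR5, at 60.2 then 60.3 CPM, with 98.0 then 127 CPM in PC-3. MYC stood at 118 then 108 CPM, with 262 then 186 CPM in PC-3, and OGT, which glycosylates HCFC1, at 362 then 392 CPM, with 413 then 599 CPM in PC-3. The H3K4 demethylases had medians of 0.15 and 0.14, also with 0 past 2-fold. KDM1A, the flavin-dependent demethylase LSD1, stood at 135 and then 113 CPM in DU145, with 195 and then 109 CPM in PC-3, and its relative KDM1B at 61.5 then 62.0 CPM, with 55.3 then 99.9 CPM in PC-3. KDM5B stood at 117 then 131 CPM, with 84.4 then 132 CPM in PC-3, and KDM5A at 74.8 then 94.2 CPM, with 47.6 then 51.2 CPM in PC-3. In PC-3 KDM1A and KDM1B thus stood on opposite sides of their DMSO values.

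The H3K4 methylation readers had medians of −0.19 and −0.03, with 1 of 13 lower by 2-fold in DU145 and 0 past 2-fold in PC-3. Over all genes 9.01% were past 2-fold in DU145 and 15.8% in PC-3. The 1 gene was ING4, named after its values were seen. ING4 stood at 22.5 and then 10.6 CPM in DU145, with 10.1 and then 18.2 CPM in PC-3. It was thus lower with OICR-9429 in DU145 and higher in PC-3, at a ratio of 1.81 (1.56 to 2.09). ING3, a subunit of the NuA4 acetyltransferase complex, stood at 23.0 and then 14.9 CPM in DU145, with 14.9 and then 13.5 CPM in PC-3. BPTF, a reader in the NURF remodeller, stood at 129 then 155 CPM, with 205 then 233 CPM in PC-3, and SPIN1 at 176 then 154 CPM, with 87.4 then 83.8 CPM in PC-3. Polycomb core genes, whose H3K27 mark opposes H3K4 methylation, had medians of −0.08 and −0.04. By 2-fold, EZH1 was higher and EZH2 lower in PC-3, and CBX2 was lower in DU145. EZH2, the main H3K27 methyltransferase, stood at 69.2 and then 60.7 CPM in DU145, with 76.7 and then 29.4 CPM in PC-3, and its paralogue EZH1 at 70.7 then 54.3 CPM, with 15.4 then 45.8 CPM in PC-3. JARID2 stood at 55.8 then 83.2 CPM, with 46.3 then 77.1 CPM in PC-3, and CBX2 at 5.36 then 2.14 CPM, with 24.4 then 22.5 CPM in PC-3.

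Most of the listed genes of cell division fell across both lines in the same fit. Of 8 proliferation markers 6 fell and 0 rose (limma, adjusted p under 0.05), where 1.28% of all genes passed in either direction. Their median log2 changes were −2.17 in DU145 and −2.58 in PC-3. The list was chosen with earlier results of these data known, so the count describes these genes and is no independent check. MKI67 stood at 486 and then 100 CPM in DU145, with 472 and then 28.7 CPM in PC-3. Its fitted log2 difference was −3.13 ± 0.39 (SE, adjusted p = 0.00098 with limma). TOP2A, CDK1, CCNB1, AURKA and BUB1 also fell, by 2.23 to 3.03, and MCM2 (adjusted p = 0.065) and PCNA (adjusted p = 0.20) did not pass. In bulk RNA a different mix of cells over the cell cycle and a different amount of RNA per cell cannot be told apart. The part of this shift in the members' values was not tested.

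**Figure D5:**
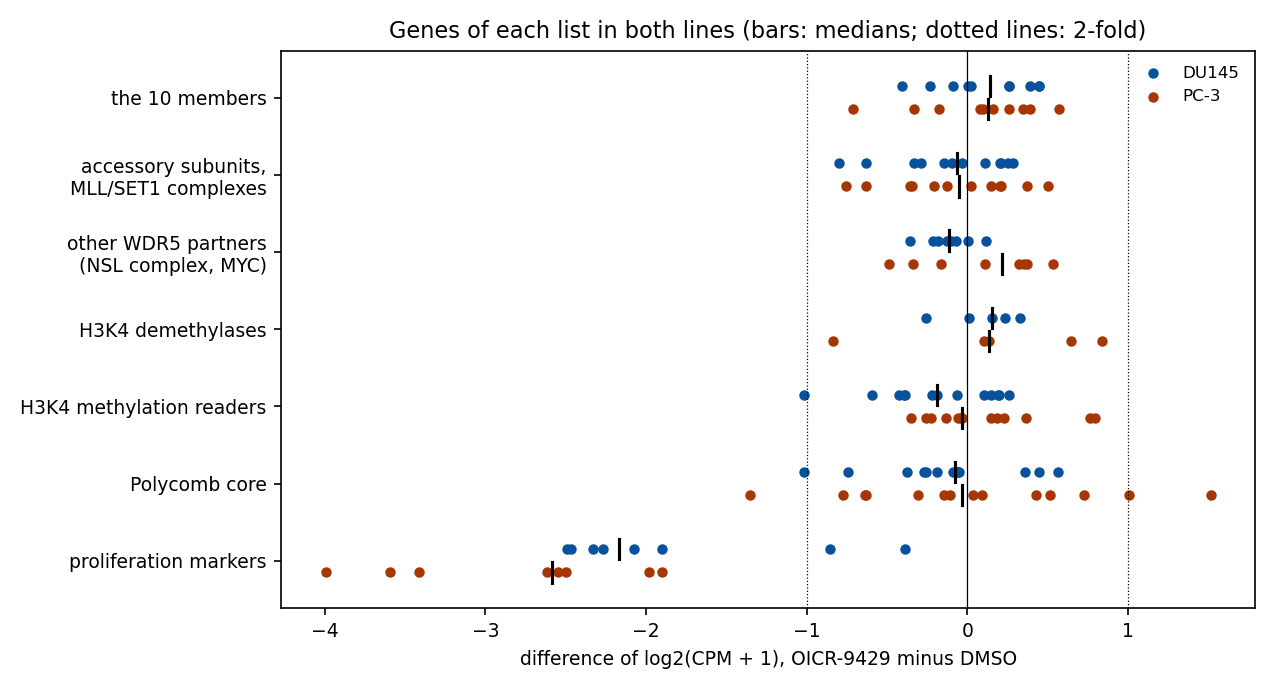
Difference of log2(CPM + 1), OICR-9429 minus DMSO, for the genes of each list in DU145 (blue) and PC-3 (brown), with list medians as black bars. The members span −0.71 to 0.57, while the medians of the proliferation markers lie at −2.17 and −2.58.

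Between the lines, over all 4 libraries, 3 of 12 accessory subunits passed the limma test, 1 higher and 2 lower in DU145, and 0 higher and 2 lower under TMM scaling. Of the 8 other WDR5 partners 1 was higher and 2 lower in DU145, with 0 and 3 under TMM scaling. Of the 5 H3K4 demethylases 0 passed, with 1 lower under TMM scaling. Of the 13 readers 2 were higher and 1 lower, with 0 and 2 under TMM scaling, and of the 14 Polycomb genes 3 were higher and 1 lower, with 1 and 1 under TMM scaling. Over all genes 31.7% passed, so most of these shares lay near the background. PAXIP1 was higher in DU145 by 1.02 ± 0.34 on the log2 scale (SE; limma's adjusted p = 0.036). It was the 1 accessory subunit called higher, and 0 were called higher under TMM or median-of-ratios scaling. KDM6A, the H3K27 demethylase of the KMT2C and KMT2D complexes, was lower by −0.92 ± 0.32 (limma's adjusted p = 0.042). MYC was lower in DU145 at −0.96 ± 0.31 (adjusted p = 0.031).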

How the data were processed

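Each deposited file lists Ensembl identifiers and CPM, per the file headers. Its values sum to 999788 to 999896. The submitters' processing notes mention hg19 and, for tools, HTSeq 0.6.1, HISAT2 2.1.0 and bcl2fastq 2.19.1, without role or order. The sources used here do not give the annotation or HTSeq's settings. All values were whole multiples of 1 step per library (within 0.01 step), so reads were recovered and halved to fragments. Values of 1 step (111 to 519 per library) were taken as 0.

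Names came from a GENCODE table and lengths from GENCODE 29, which is on another build, so gene coordinates are not given. The members and lists were chosen with earlier results of these data known. The genes named per list are those passing the treatment test and up to 4 more with the largest mean change, with KDM6A, HCFC1, ING4 and WDR5B named after their values were seen. The model, in limma 3.58.1 (trend), explains log2(CPM + 1) by line plus treatment. It covered the 14976 of 20993 genes listed in all 4 libraries that exceeded 1 CPM in 2 or more. It was tested on simulated data with 200 changed genes, where it recovered 0 at 2-fold and 143 at 4-fold, with 0 and 4 false calls. Alternatives included edgeR 4.0.16, DESeq2 1.42.0, voom, TMM and median-of-ratios scaling. PCR copies cannot be told from molecules, so intervals cover counting error only. Some results on listed genes are not reported here.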

Additional observations from a re-analysis of the deposited data

Results flagged for a closer look

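On the deposited scale, the members whose ratios lay on opposite sides of 1 in the lines beyond counting error were KMT2B and SETD1A. The ratio of OICR-9429 over DMSO in PC-3, divided by that in DU145, was 1.32 for KMT2B and 0.737 for SETD1A. The share of all genes on opposite sides in this way was not counted. Within a line, the interval excluded 1 for 73.0% of all genes in DU145 and 77.8% in PC-3. With 1 library a group the difference between the lines was not tested, and which members are named depends on the scale. Under TMM scaling the DU145 ratio of KMT2B was 0.969 (0.910 to 1.03), and under median-of-ratios scaling 1.01 (0.944 to 1.07). That of WDR5 was 1.07 (1.01 to 1.14) and 1.11 (1.05 to 1.18), against 0.615 and 0.613 in PC-3, while SETD1A lay on opposite sides under both. Among the listed genes ING1, a reader of H3K4 methylation, went from 32.8 to 24.8 CPM in DU145, against 14.3 to 24.9 CPM in PC-3, which gave 2.32. EZH1 had a value of 3.88. These differences were not tested either.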

How the results depend on the processing

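The count of members past 2-fold stayed at 0 in DU145 and in PC-3 under a pseudocount of 0.1, a minimum of 5 CPM, no minimum, and both other scalings. Between the lines at baseline it became 1 under median-of-ratios scaling, by the scaling's own shift. WDR5 in DU145 turned to 0.10 under TMM and 0.15 under median-of-ratios scaling, and KMT2B there to 0.008 under the latter. KMT2B between the lines at baseline turned to −0.21 and −0.28. Alternatives chosen after seeing the data were both scalings for the treated lines, where members past 2-fold went from 1 to 0 under each, and for the ratio in PC-3 over that in DU145, where KMT2A turned to 0.976 and 0.936 and KMT2C to 0.967 under median-of-ratios scaling. No member passed the treatment test under any of the 9 alternatives, and 1, SETD1B, passed the line test under TMM scaling, with an estimate of −0.84. Against 191 genes called for treatment over all genes, DESeq2 called 301, edgeR 170 and median-of-ratios scaling 91. Dropping line from the model left 0, with 230 genes below 0.05 before adjustment. The main model pairs the libraries by line, and the fit with only the term tested is its unpaired form. Leaving out a library leaves no residual degree of freedom.

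In simulated data no gene changed 2-fold was recovered, so the test across lines says little about differences of the size seen in the members. KMT2C has partial copies in the genome, and KMT2A, KMT2B, KMT2C, KMT2D and SETD1A share 35 to 3654 exon bases with other annotated genes. How such reads were counted is not known, so these levels are uncertain to that extent. The overlapping genes with a value, IGFLR1, FABP5P3 and DDN-AS1, had at most 1.27 CPM. No value was found under the name AP001267.5, which shares 3654 exon bases with KMT2A on the same strand.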

Other observations

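WDR5B, an intronless paralogue of WDR5, was looked at after its values were seen. It stood at 14.2 CPM in DU145 with DMSO, 12.1 in DU145 with OICR-9429, 12.0 in PC-3 with DMSO and 28.6 in PC-3 with OICR-9429. The treated PC-3 library was the highest of the 4, where WDR5 was lowest. The ratio was 0.853 in DU145 (0.736 to 0.989) and 2.38 in PC-3 (2.101 to 2.71), past 2-fold as 15.8% of genes were in PC-3. WDR5B made up 13.8% and 12.6% of the summed CPM of WDR5 and WDR5B in DU145, and 16.1% and 43.2% in PC-3. The sum itself was 103, 95.6, 74.2 and 66.2 CPM. WDR5B did not pass the test across lines (0.49 ± 0.44, limma, adjusted p = 0.88, 0.79 to 1.00 over the alternatives). The genes share sequence, and how shared reads were counted is not known.

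HCFC1, a cofactor of the SETD1A, SETD1B, KMT2A and KMT2B complexes and of the NSL complex, stood at 162 and 187 CPM in DU145 and at 361 and 214 CPM in PC-3. Its ratio was 1.16 in DU145 (1.11 to 1.20) and 0.591 in PC-3 (0.573 to 0.610). HCFC1, looked at after its values were seen, and WDR5 were thus both lower with OICR-9429 in PC-3, where the interval lay below 1 for 39.5% of all genes. Their profiles differed otherwise. The DU145 ratio of WDR5 was 0.940, and HCFC1 stood higher in both PC-3 libraries than in DU145, where WDR5 stood lower. HCFC1 did not pass the test across lines (−0.27 ± 0.35, limma, adjusted p = 0.94).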
